A study of Mus musculus with 20 samples.

Results

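The comparison described here set myofibroblasts grown from portal mesenchymal stem cells (PMSC-MF-7d, 4 libraries) against myofibroblasts grown from hepatic stellate cells (HSC-MF-7d, 4 libraries), 8 of the 20 RNA-seq libraries of the series. Members were chosen by the group given in the sample titles, and no measured value entered the choice. All cells came from the liver of C57BL/6 mice, and no genotype, transgene or drug was given for either group. The other 12 libraries held fresh PMSC, fresh HSC and PMSC-derived myofibroblasts labelled 3 days (4 each). They entered the statistical fit, and the fresh cells serve below as a point of comparison. The titles gave 7 days for both cultures, whereas the series text gave 3 days for the stellate culture, so the time in culture of HSC-MF-7d is uncertain. How the cells were isolated was not given in the sources used here. Whether replicate libraries stem from different animals or dishes is not labelled. P-values therefore rest on differences among these libraries alone, which may be technical.

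Myofibroblasts are contractile cells that deposit collagen in injured liver. Stellate cells lie between the hepatocytes and the sinusoidal endothelium, store vitamin A as retinyl ester and are a major source of myofibroblasts when the lobule is injured. Portal fibroblasts and their progenitors lie around the bile ducts and portal vessels, make elastin-rich matrix, and contribute myofibroblasts when bile flow is blocked. The comparison asks which secreted factors, matrix genes, receptors and transcription factors still separate myofibroblasts of these origins after culture.

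The summed expected counts were 22738017 to 26675589 per PMSC-MF-7d library and 13572278 to 18382038 per HSC-MF-7d library. Of 24848 genes in the tables, 14751 had enough counts to be tested. At an adjusted p under 0.05 (edgeR quasi-likelihood test, Benjamini-Hochberg over all genes tested), 3532 genes, or 23.9%, were higher in PMSC-MF-7d and 3409, or 23.1%, were lower, 47.1% in all. The libraries of the groups did not overlap for 7702 genes, or 52.2%. A called difference of 4-fold or more was met by 650 genes (4.41%) on the higher side and 881 genes (5.97%) on the lower side. These shares are the background against which the lists below are read. Fold changes are given as log2 of PMSC-MF-7d over HSC-MF-7d with the standard error (SE), and levels as CPM, the counts scaled to each library's total and by TMM factors.

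The libraries of a group did not vary alike. The biological coefficient of variation was 19.6% within PMSC-MF-7d and 7.81% within HSC-MF-7d. PMSC-MF-7d replicate 2 was the lowest of its group for 382 of the 650 genes (58.8%) that were 4-fold or more higher in PMSC-MF-7d, and the highest of its group for 356 of the 881 (40.4%) that were 4-fold or more lower. PMSC-MF-7d replicate 1 was the highest of its group for 340 of the 650 (52.3%) and the lowest for 499 of the 881 (56.6%). HSC-MF-7d replicate 1 was the lowest of its group for 402 of the 881 (45.6%) and carried low levels of several portal transcripts that were near 0 in the other HSC-MF-7d libraries. With PMSC-MF-7d replicate 2 and HSC-MF-7d replicate 1 both left out, 3207 genes were called higher and 3072 lower. Where one library moved a fold change by more than 1.5 times, the value without it is given beside the gene. The groups overlapped for Lrat, Csf1, Sparc, Axl, Pdgfra, Pdgfrb, Ptch1 and Gata4, and for no other gene whose values or fold change are printed below.

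The markers of the portal cells were high in PMSC-MF-7d and low in HSC-MF-7d. Thy1, a glycosylphosphatidylinositol-anchored surface protein of fibroblasts, had 481, 374, 498 and 627 CPM in PMSC-MF-7d, against 7.83, 1.37, 4.84 and 2.60 CPM in HSC-MF-7d; the log2 fold change was 6.90 ± 0.43, adjusted p = 2.2e-10. Slit2, a secreted guidance ligand, had 278, 59.8, 124 and 143 CPM in PMSC-MF-7d, against 2.37, 1.77, 3.27 and 3.19 CPM in HSC-MF-7d (5.85 ± 0.42, adjusted p = 1.4e-09). Mgp, which encodes matrix Gla protein, an inhibitor of calcification, had 262, 17.4, 71.6 and 105 CPM in PMSC-MF-7d, against 1.37, 0, 0.0681 and 0.159 CPM in HSC-MF-7d, a difference of 8.09 ± 0.86, adjusted p = 2.7e-07; it was 10.47 without HSC-MF-7d replicate 1 and 7.28 without PMSC-MF-7d replicate 1. Every PMSC-MF-7d library lay above every HSC-MF-7d library for these 3 genes, and the widest spread was that of Mgp, with PMSC-MF-7d replicate 2 lowest and HSC-MF-7d replicate 1 highest in their groups.

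The markers of the stellate cells stood the other way. Bmp10, a circulating ligand of the bone morphogenetic protein (BMP) family, had 0, 0.204, 0 and 0 CPM in PMSC-MF-7d, against 120.3, 195, 169 and 197 CPM in HSC-MF-7d. Its log2 fold change was -11.66 ± 0.43, adjusted p = 3.4e-13, and -14.76 without PMSC-MF-7d replicate 2, the only library of its group with a count; the second value is fitted against a group at 0 and is no bound. Bco1, the enzyme that cleaves beta-carotene to retinal, had 0.145, 0.408, 1.25 and 1.06 CPM in PMSC-MF-7d, against 1350, 1285, 1352 and 1263 CPM in HSC-MF-7d (-10.82 ± 0.34, adjusted p = 7.9e-14). Per length, Bco1 averaged 0.772 TPM (a level scaled by transcript length and library size) in PMSC-MF-7d and 1447 TPM in HSC-MF-7d. Reln, which encodes the secreted glycoprotein reelin, had 0.217, 1.30, 0.99 and 0.848 CPM in PMSC-MF-7d, against 205, 226, 216 and 222 CPM in HSC-MF-7d, and Des, the intermediate filament protein desmin, had 12.2, 24.6, 19.4 and 13.9 CPM in PMSC-MF-7d, against 135, 152, 137 and 145 CPM in HSC-MF-7d. The groups did not overlap for any of these 4 genes. Lrat, the enzyme that esterifies retinol and a defining gene of quiescent stellate cells, was at 0.109, 0.0408, 0 and 0 CPM in PMSC-MF-7d, against 0.105, 0.507, 0.613 and 1.33 CPM in HSC-MF-7d, close to 0 in both groups (-3.90 ± 1.01, adjusted p = 0.0035; -5.10 without PMSC-MF-7d replicate 1 and -3.21 without HSC-MF-7d replicate 4).

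**Figure D1:**
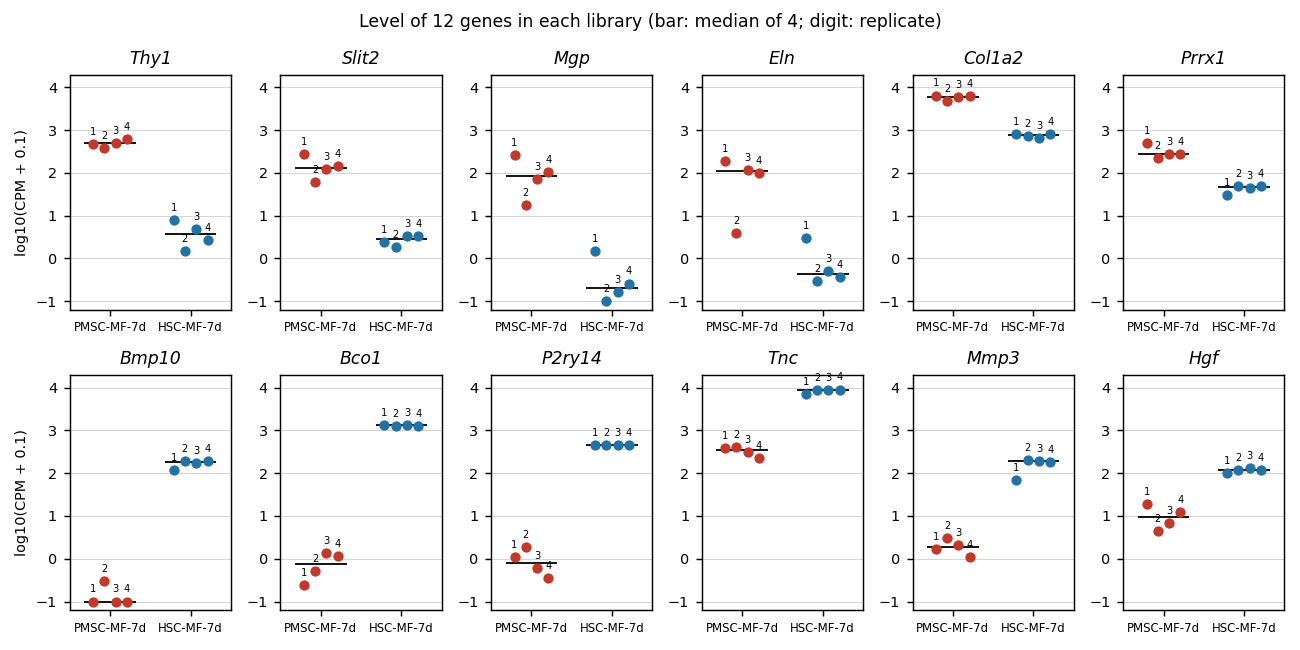
Level of 12 genes in each of the 4 PMSC-MF-7d libraries (red, left) and 4 HSC-MF-7d libraries (blue, right), on a log10 scale of CPM with a small constant added; the bar is the median and the digit the replicate. The groups do not overlap for any of the 12, and PMSC-MF-7d replicate 2 lies apart from its group for Eln.

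Of 33 tested genes on a list of portal fibroblast genes, 21 were higher in PMSC-MF-7d and 5 were lower, with a median log2 fold change of 2.58. Of 42 tested genes on a list of stellate and retinoid genes, 4 were higher and 28 lower, with a median of -2.20. The median over all genes tested was 0.00. Both lists were chosen with results of these data known and are given as a description. The 5 portal-list genes that were lower (3 without HSC-MF-7d replicate 2) included Lum, which encodes lumican (-3.62), and Cxcl12 (-0.78); Lum had -5.09 without PMSC-MF-7d replicate 1, and in PMSC-MF-3d it was not called (0.22, adjusted p = 0.71). The 4 stellate-list genes that were higher included the retinal dehydrogenase Aldh1a3 (2.97) and the retinoic acid hydroxylase Cyp26b1 (2.30). Against the same HSC-MF-7d libraries, PMSC-MF-3d had less Cyp26b1 (-2.13, adjusted p = 0.0033).

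The sequences around the transcription start are shown for 3 of these markers, Slit2, Bmp10 and Bco1, because they anchor both ends of the comparison. Each runs from 250 bases before to 50 bases after the RefSeq start (GRCm38.p6), 5′ to 3′ on the gene's strand, at chr5:47982905-47983204 (plus strand) for Slit2, chr6:87428744-87429043 (plus strand) for Bmp10 and chr8:117095615-117095914 (plus strand) for Bco1. Capitals mark matches, on either strand, to any of 7 motifs searched: a TATA box (TATAAA), a GC box (GGGCGG), the motif of GATA factors (AGATAA), an AP-1 motif (TGAGTCA), a TEAD motif (GGAATG), a homeodomain motif (TAATTA) and a retinoic acid response element (a direct repeat of GNTCA with any 6 bases in between).
Slit2: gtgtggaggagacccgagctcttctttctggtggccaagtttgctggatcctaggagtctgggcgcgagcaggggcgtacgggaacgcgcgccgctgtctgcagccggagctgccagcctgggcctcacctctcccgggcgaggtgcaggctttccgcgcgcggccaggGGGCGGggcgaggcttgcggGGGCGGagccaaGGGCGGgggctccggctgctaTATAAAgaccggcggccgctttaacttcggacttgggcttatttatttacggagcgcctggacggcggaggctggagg
Bmp10: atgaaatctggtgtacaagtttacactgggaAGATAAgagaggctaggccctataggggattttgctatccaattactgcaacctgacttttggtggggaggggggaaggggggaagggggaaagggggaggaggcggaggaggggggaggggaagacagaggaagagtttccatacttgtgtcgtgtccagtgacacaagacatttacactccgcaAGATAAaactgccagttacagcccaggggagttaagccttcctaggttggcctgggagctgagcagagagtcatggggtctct
Bco1: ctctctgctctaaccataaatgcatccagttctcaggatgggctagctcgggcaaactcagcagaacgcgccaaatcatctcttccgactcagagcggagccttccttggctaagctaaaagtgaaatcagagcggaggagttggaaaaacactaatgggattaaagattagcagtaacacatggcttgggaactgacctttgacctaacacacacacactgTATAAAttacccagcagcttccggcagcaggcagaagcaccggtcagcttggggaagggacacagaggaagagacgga
Slit2 held a TATA box that began 28 bases before the start and 3 GC boxes. Bmp10 held 2 GATA motifs, which began 219 and 33 bases before the start, and no TATA box. Bco1 held a TATA box 28 bases before the start. Of 32851 promoters of the same length, 13.6% held the TATA box, 35.7% the GC box and 11.2% the GATA motif. Among the 14584 promoters of genes tested here the shares were 7.80%, 59.6% and 6.77%.

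The genes with the largest called differences were not all on the lists. Among genes with a group mean of at least 20 CPM, Hspb7, a small heat shock protein, was among the 8 highest in PMSC-MF-7d (163, 193, 251 and 218 CPM in PMSC-MF-7d, against 3.68, 0.659, 0.818 and 1.65 CPM in HSC-MF-7d; 6.89 ± 0.41, adjusted p = 1.1e-10). It was 7.62 without HSC-MF-7d replicate 1. At the other end were Psg22 and Hcls1. Psg22 belongs to the pregnancy-specific glycoproteins, a family of similar genes among which reads can be split wrongly. It had 3 counts over the 4 PMSC-MF-7d libraries and 12884 over the 4 HSC-MF-7d libraries, a ratio of 6400 in favour of HSC-MF-7d after scaling (95% counting interval 2190 to 31000). All 3 counts lay in PMSC-MF-7d replicate 2; the fitted log2 fold change was -12.37, and -14.84 without that library, against a group at 0 and so no bound. Hcls1, a cortactin-related protein known from blood cells, had 0.0724, 0.0815, 0 and 0.0353 CPM in PMSC-MF-7d, against 39.3, 40.1, 45.9 and 42.9 CPM in HSC-MF-7d (-9.64 ± 0.47, adjusted p = 1.2e-11).

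Secreted factors were called in 53.7% of 218 tested members of 10 lists, 51 higher and 66 lower, against 47.1% of all genes. A 4-fold or larger called difference was met by 31.2% of them, against 10.4% of all genes. Guidance ligands were split evenly, with 7 higher and 7 lower of 17. Slit3, a second Slit ligand, had 107, 9.34, 33.0 and 38.1 CPM in PMSC-MF-7d, against 0.316, 1.32, 1.84 and 1.17 CPM in HSC-MF-7d (5.37 ± 0.65, adjusted p = 1.3e-06), and 4.57 without PMSC-MF-7d replicate 1. On the other side, Sema3d, a class 3 semaphorin, had 30.7, 31.1, 41.7 and 31.6 CPM in PMSC-MF-7d, against 243, 313, 325 and 285 CPM in HSC-MF-7d (-3.11 ± 0.14, adjusted p = 3.8e-12). Ntn1, which encodes netrin 1, was lower as well (-2.01).

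Ligands of the transforming growth factor beta (TGF-beta) superfamily were lower in PMSC-MF-7d in 10, higher in 3 and not called in 8 of 21. Besides Bmp10, Bmp5 had 0.76, 0.367, 0 and 0.106 CPM in PMSC-MF-7d, against 108, 125, 122 and 129 CPM in HSC-MF-7d, and Gdf2, which encodes BMP9, had 0.145, 0.0815, 0 and 0 CPM in PMSC-MF-7d, against 7.94, 8.46, 9.20 and 7.49 CPM in HSC-MF-7d. The log2 fold change of Bmp5 was -8.60 ± 0.45, adjusted p = 2.4e-11, and -9.59 without PMSC-MF-7d replicate 1. Gdf2 was -7.06, and -8.04 without that library. Bmp2 was lower (-3.32), as was Inhba, the activin A subunit (-1.28), which was not called in PMSC-MF-3d (-0.28, adjusted p = 0.12). Tgfb1, the main profibrotic cytokine, had 30.7, 38.6, 38.0 and 35.4 CPM in PMSC-MF-7d, against 105, 104, 111 and 104 CPM in HSC-MF-7d (-1.57 ± 0.08, adjusted p = 2.1e-11). The 3 higher members included Inhbb, the activin B subunit, with 35.7, 14.9, 25.7 and 28.7 CPM in PMSC-MF-7d, against 1.05, 0.861, 1.43 and 1.22 CPM in HSC-MF-7d (4.53 ± 0.29, adjusted p = 3e-10), and Bmp4 (1.41). In PMSC-MF-3d, Tgfb1 was above HSC-MF-7d (0.51, adjusted p = 2e-05), so its direction depended on the time point of the portal culture.

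Antagonists of BMPs and activins stood on the portal side. Of 16 tested, 8 were higher in PMSC-MF-7d and 1, Bmper, was lower (-0.78). Without PMSC-MF-7d replicate 1 or 4, 2 were lower. With PMSC-MF-3d in place of PMSC-MF-7d, 6 were higher and 3 lower. Fst, which encodes the activin-binding protein follistatin, had 244, 142, 113 and 107 CPM in PMSC-MF-7d, against 26.6, 20.2, 23.6 and 29.8 CPM in HSC-MF-7d (2.59 ± 0.43, adjusted p = 5e-05). No library of HSC-MF-7d reached the lowest PMSC-MF-7d library for Fst.

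Wnt pathway ligands were called in 40.0% of 15 tested members (3 higher, 3 lower), and secreted Wnt antagonists in 40.0% of 10 (2 higher, 2 lower), both under the share of all genes. The 3 higher Wnt ligands became 1 without PMSC-MF-7d replicate 1 or HSC-MF-7d replicate 2, 3 or 4, and the 2 higher antagonists became 1 without PMSC-MF-7d replicate 1. The R-spondins, which amplify Wnt signalling, were divided. Rspo2 had 347 counts over the PMSC-MF-7d libraries and 2 over the HSC-MF-7d libraries, a ratio of 116 (95% counting interval 32 to 965), but its level was 10.5, 0.53, 0.66 and 0.954 CPM in PMSC-MF-7d, against 0, 0, 0 and 0.106 CPM in HSC-MF-7d, so that PMSC-MF-7d replicate 1 held most of it. The fitted log2 fold change was 6.55, 4.43 without that library and 9.04 without HSC-MF-7d replicate 4 (fitted against a group at 0, so no bound), and Rspo2 was not called in PMSC-MF-3d (1.09, adjusted p = 0.65). Rspo3 had 4.53, 1.63, 1.47 and 1.70 CPM in PMSC-MF-7d, against 43.0, 53.5, 60.8 and 53.3 CPM in HSC-MF-7d (-4.49 ± 0.26, adjusted p = 7e-11). The Wnt antagonist Frzb had 16.8, 7.79, 6.63 and 5.87 CPM in PMSC-MF-7d, against 153, 251, 247 and 229.6 CPM in HSC-MF-7d (-4.57 ± 0.37, adjusted p = 7.1e-09) and Dkk2, an inhibitor of Wnt co-receptors, had 9.96, 7.58, 12.4 and 19.2 CPM in PMSC-MF-7d, against 73.9, 108, 94.3 and 99.2 CPM in HSC-MF-7d (-2.93 ± 0.41, adjusted p = 1.7e-05).

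Growth factors that act on receptor kinases were called lower in 19 and higher in 10 of 44. Fgf7, a fibroblast growth factor that acts on epithelium, had 105, 51.8, 45.1 and 48.5 CPM in PMSC-MF-7d, against 1.10, 0.709, 0.136 and 0.372 CPM in HSC-MF-7d (6.68 ± 0.45, adjusted p = 5.8e-10). Fgf10 had 992 counts over the PMSC-MF-7d libraries and 3 over the HSC-MF-7d libraries, a ratio of 222 (95% counting interval 75.7 to 1080). Those 3 counts lay in HSC-MF-7d replicate 4; the fitted log2 fold change was 7.58, and 10.57 without that library, against a group at 0 and so no bound. Gas6, a ligand of the Tyro3, Axl and Mertk receptors, had 142, 63.0, 62.1 and 81.6 CPM in PMSC-MF-7d, against 16.9, 16.0, 14.9 and 17.2 CPM in HSC-MF-7d (2.42 ± 0.23, adjusted p = 5.5e-08), and the platelet-derived growth factor Pdgfc was higher too (2.21). On the stellate side, Hgf, the hepatocyte mitogen, had 18.9, 4.32, 6.71 and 12.6 CPM in PMSC-MF-7d, against 101, 117, 132 and 119 CPM in HSC-MF-7d (-3.46 ± 0.33, adjusted p = 5.1e-08). Pgf, placental growth factor, had 4.09, 11.9, 6.96 and 4.95 CPM in PMSC-MF-7d, against 81.1, 82.6, 92.2 and 85.1 CPM in HSC-MF-7d (-3.61 ± 0.37, adjusted p = 1.3e-07), and the epidermal growth factor receptor ligand Btc had 4.78, 19.2, 10.5 and 8.84 CPM in PMSC-MF-7d, against 72.8, 77.6, 76.2 and 91.9 CPM in HSC-MF-7d (-2.88 ± 0.41, adjusted p = 8.7e-06).

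The insulin-like growth factor binding proteins were higher in 4 and lower in 1 of 8. Igfbp6 had 103, 56.0, 50.7 and 62.8 CPM in PMSC-MF-7d, against 1.47, 0, 0.341 and 0 CPM in HSC-MF-7d (7.20 ± 0.51, adjusted p = 9.1e-10; 9.41 without HSC-MF-7d replicate 1). Igfbp4 had 172, 118, 94.9 and 105 CPM in PMSC-MF-7d, against 7.47, 7.45, 6.40 and 7.06 CPM in HSC-MF-7d (4.11 ± 0.23, adjusted p = 5.3e-11). Igfbp2 had 329.8, 538, 401 and 496 CPM in PMSC-MF-7d, against 98.8, 49.2, 52.0 and 55.8 CPM in HSC-MF-7d (2.78 ± 0.34, adjusted p = 1.4e-06), whereas PMSC-MF-3d did not differ from HSC-MF-7d beyond the threshold (-0.36, adjusted p = 0.37).

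Chemokine ligands were called lower in 10 and higher in 3 of 29, a called share of 44.8% against 47.1% of all genes. Cxcl14 had 2.86, 5.34, 1.14 and 0.601 CPM in PMSC-MF-7d, against 128, 199, 199 and 188 CPM in HSC-MF-7d (-6.19 ± 0.50, adjusted p = 6.9e-09; -6.85 without PMSC-MF-7d replicate 2). Cxcl12, the ligand of Cxcr4, was abundant in both groups (899, 580.5, 641 and 511 CPM in PMSC-MF-7d, against 1297, 1045, 1107 and 1056 CPM in HSC-MF-7d) and modestly lower in PMSC-MF-7d (-0.78 ± 0.19, adjusted p = 0.0024). Vascular and neural peptides and hormones were higher in 7 and lower in 5 of 26, a called share of 46.2%. Of the lower members, Angptl4, a lipoprotein lipase inhibitor, had 10.8, 46.8, 28.8 and 21 CPM in PMSC-MF-7d, against 303, 381, 383 and 349 CPM in HSC-MF-7d (-3.72 ± 0.37, adjusted p = 1.1e-07). The vasoconstrictor precursor Edn1 was another (-1.97). Per length, the most abundant secreted factor of both groups was Csf1, the macrophage growth factor, at 2225 TPM in PMSC-MF-7d and 2076 TPM in HSC-MF-7d, and it was not called (0.19 ± 0.17, adjusted p = 0.39).

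**Figure D2:**
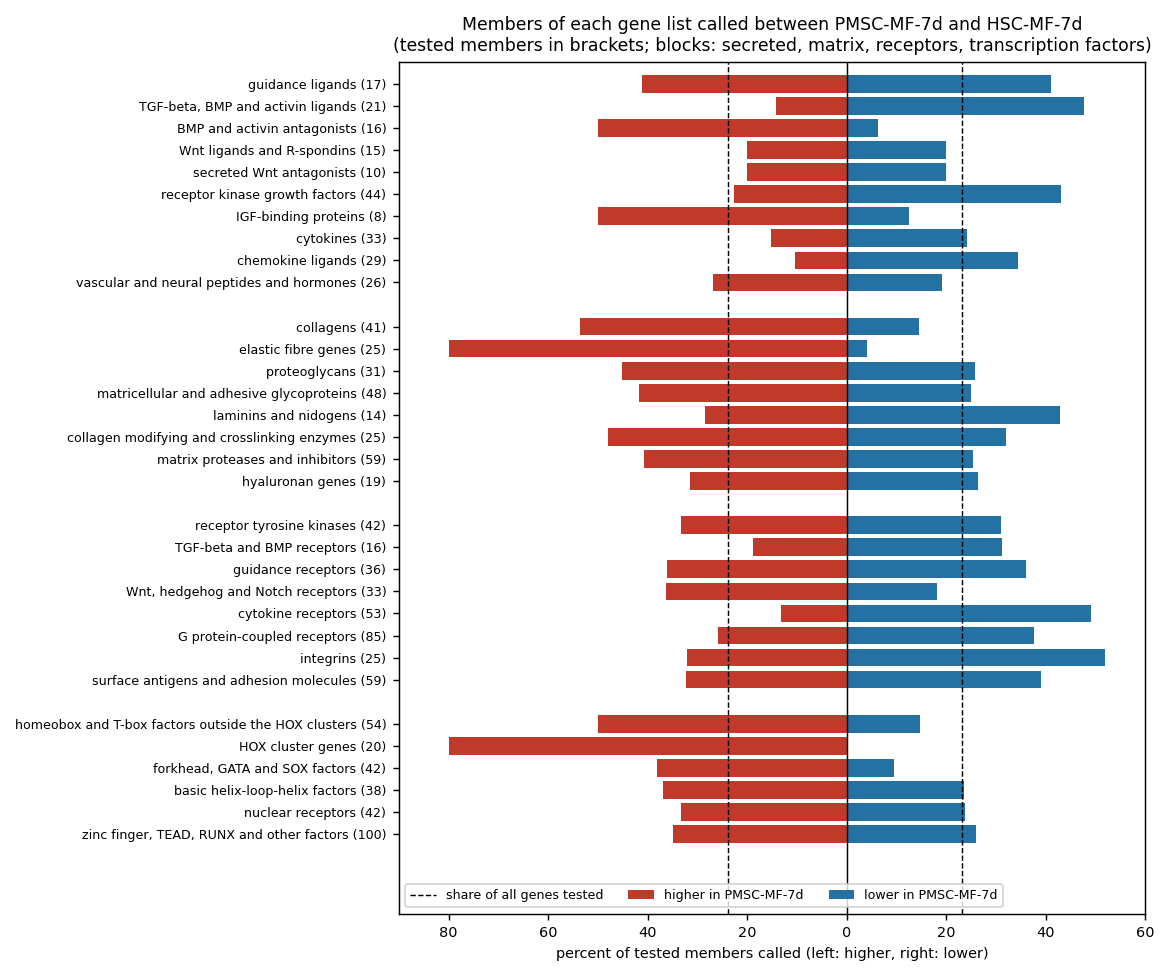
Percent of tested members called higher (red, left of 0) and lower (blue, right of 0) in PMSC-MF-7d for 32 gene lists in 4 blocks; dashed lines mark the shares of all genes tested, 23.9% higher and 23.1% lower. Elastic fibre and HOX cluster genes reach furthest to the higher side, integrins and cytokine receptors furthest to the lower side.

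Matrix genes were called in 69.6% of 260 tested members, 120 higher and 61 lower, against 47.1% of all genes. A called difference of 4-fold or more was met by 34.2% of the members, against 10.4% of all genes. Collagens were higher in 22 and lower in 6 of 41. Col1a1, a chain of the main fibril-forming collagen, had 10700, 7948, 9860 and 10750 CPM in PMSC-MF-7d, against 2269, 2366, 2160 and 2347 CPM in HSC-MF-7d (2.10 ± 0.31, adjusted p = 1.7e-05), and its partner chain Col1a2 had 6449, 4772, 5829 and 6324 CPM in PMSC-MF-7d, against 803, 724, 668 and 822 CPM in HSC-MF-7d (2.95 ± 0.15, adjusted p = 1.6e-11). Col6a3, a chain of microfibrillar collagen VI, had 1862, 1358, 1784 and 1808 CPM in PMSC-MF-7d, against 173, 107, 96.0 and 147 CPM in HSC-MF-7d (3.70 ± 0.23, adjusted p = 2.5e-10). Col3a1 was higher by less (0.94). Col15a1, a collagen of the basement membrane zone, had 188, 55.0, 279 and 362 CPM in PMSC-MF-7d, against 3.73, 0.963, 1.02 and 1.70 CPM in HSC-MF-7d (6.87 ± 0.60, adjusted p = 2e-08; 7.48 without HSC-MF-7d replicate 1). Col7a1, the anchoring fibril collagen, was one of the 6 lower members (16.4, 43.1, 20.7 and 21.8 CPM in PMSC-MF-7d, against 109, 99.0, 109 and 105 CPM in HSC-MF-7d; -2.05 ± 0.32, adjusted p = 2.8e-05).

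Elastic fibre genes were higher in 20 and lower in 1 of 25, and lower in 2 without PMSC-MF-7d replicate 1. Eln, which encodes elastin, had 191, 3.83, 118 and 102 CPM in PMSC-MF-7d, against 2.84, 0.203, 0.409 and 0.266 CPM in HSC-MF-7d (6.76 ± 0.90, adjusted p = 4.1e-06; 8.50 without HSC-MF-7d replicate 1). PMSC-MF-7d replicate 2 lay far below the other 3 PMSC-MF-7d libraries for Eln and just above the highest HSC-MF-7d library. Loxl1, which crosslinks elastin, had 489, 328, 426 and 479.5 CPM in PMSC-MF-7d, against 15.8, 10.1, 12.1 and 12.1 CPM in HSC-MF-7d (5.10 ± 0.22, adjusted p = 2.6e-12) without such a gap. The microfibril gene Mfap5 was higher (2.74), and Mfap4 had 513 counts over the PMSC-MF-7d libraries and 1 over the HSC-MF-7d libraries, a ratio of 344 (95% counting interval 61.5 to 13600). The fitted log2 fold change of Mfap4 was 7.89, 7.25 without PMSC-MF-7d replicate 1 and 9.62 without HSC-MF-7d replicate 4, the last against a group at 0 and so no bound. Emilin2 had 94.3, 48.2, 95.2 and 109.5 CPM in PMSC-MF-7d, against 1.68, 1.11, 1.77 and 2.66 CPM in HSC-MF-7d (5.59 ± 0.54, adjusted p = 7.3e-08), whereas its paralog Emilin1 was the lower member (-0.54).

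Proteoglycans were higher in 14 and lower in 8 of 31. Fmod, which encodes fibromodulin, had 126, 14.8, 32.1 and 51.9 CPM in PMSC-MF-7d, against 0.316, 0.355, 0.204 and 0.85 CPM in HSC-MF-7d (6.98 ± 0.67, adjusted p = 7.1e-08; 6.21 without PMSC-MF-7d replicate 1), and Cspg4, the NG2 proteoglycan, had 307, 149, 287 and 289 CPM in PMSC-MF-7d, against 7.20, 0, 0.273 and 1.54 CPM in HSC-MF-7d (6.80 ± 0.70, adjusted p = 1.8e-07; 8.70 without HSC-MF-7d replicate 1). Dcn, which encodes decorin, had 137, 45.1, 52.8 and 65.5 CPM in PMSC-MF-7d, against 1176, 1364, 1456 and 1261 CPM in HSC-MF-7d (-4.13 ± 0.26, adjusted p = 2e-10). Bgn, a close relative of decorin, was among the most abundant matrix transcripts of both groups and was higher by 0.49, with no call in PMSC-MF-3d (0.10, adjusted p = 0.52).

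Among matricellular and adhesive glycoproteins, 20 were higher and 12 lower of 48. Vit, which encodes vitrin, had 48.9, 48.6, 64.4 and 86.2 CPM in PMSC-MF-7d, against 0.631, 0, 0.273 and 0.159 CPM in HSC-MF-7d (7.85 ± 0.46, adjusted p = 9e-11; 8.82 without HSC-MF-7d replicate 1). Smoc1, a calcium-binding matricellular protein, had 78.9, 32.2, 61.6 and 97.1 CPM in PMSC-MF-7d, against 0.789, 0.659, 0.818 and 0.744 CPM in HSC-MF-7d (6.48 ± 0.53, adjusted p = 7.4e-09). Fn1, fibronectin, had 9792, 7154, 8307 and 9417 CPM in PMSC-MF-7d, against 2756, 2272, 2136 and 2509 CPM in HSC-MF-7d (1.84 ± 0.15, adjusted p = 9.8e-09), although PMSC-MF-3d was below HSC-MF-7d (-0.39, adjusted p = 0.035). Tnc, which encodes tenascin C, a glycoprotein of remodelling matrix, had 380.4, 408, 315 and 230.2 CPM in PMSC-MF-7d, against 7000, 8933, 8933 and 9048 CPM in HSC-MF-7d (-4.67 ± 0.27, adjusted p = 6.3e-11). Per length, Tnc averaged 111 TPM in PMSC-MF-7d and 2877 TPM in HSC-MF-7d. Fndc1 was lower too (-1.89). Sparc, abundant in both groups, was not called (0.15 ± 0.10, adjusted p = 0.21), though PMSC-MF-3d was below HSC-MF-7d (-0.33, adjusted p = 0.0066).

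Laminins and nidogens were higher in 4 and lower in 6 of 14. Lama4 had 255, 163, 234 and 218 CPM in PMSC-MF-7d, against 12.1, 11.9, 12.3 and 15.3 CPM in HSC-MF-7d (4.08 ± 0.23, adjusted p = 4.7e-11), while Lama1 (-3.70) and the nidogen Nid2 (-1.56) were lower. Of the collagen-modifying enzymes, 12 were higher and 8 lower of 25; Pcolce, an enhancer of procollagen cleavage, was higher (2.16) and the crosslinking enzyme Loxl2 lower (-1.05). Serpinf1, which encodes the antiangiogenic serpin PEDF, had 639.5, 261, 359.7 and 501 CPM in PMSC-MF-7d, against 12.7, 0.405, 3.27 and 3.88 CPM in HSC-MF-7d (6.44 ± 0.63, adjusted p = 8.1e-08; 7.48 without HSC-MF-7d replicate 1). The hyaluronan genes included opposite members: Cemip, which binds and helps degrade hyaluronan, had 2167, 1464, 2015 and 2229 CPM in PMSC-MF-7d, against 185, 102, 111 and 134 CPM in HSC-MF-7d (3.89 ± 0.30, adjusted p = 3.8e-09), and Has2, the synthase, had 23.2, 28.6, 23.3 and 19.5 CPM in PMSC-MF-7d, against 179.9, 169.5, 187 and 158 CPM in HSC-MF-7d (-2.87 ± 0.38, adjusted p = 4.6e-06).

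Matrix proteases and their inhibitors were higher in 24 and lower in 15 of 59. Mmp23 had 95.2, 49.3, 63.4 and 69.3 CPM in PMSC-MF-7d, against 6.52, 2.08, 3.75 and 3.61 CPM in HSC-MF-7d (4.12 ± 0.32, adjusted p = 3.5e-09), and the membrane-anchored Mmp16 was higher too (3.02). The members named on the lower side were secreted metalloproteinases. Mmp13, a collagenase, had 1.41, 9.13, 3.37 and 4.88 CPM in PMSC-MF-7d, against 306, 534, 632 and 522 CPM in HSC-MF-7d (-6.74 ± 0.58, adjusted p = 1.4e-08). Mmp3, stromelysin 1, had 1.59, 2.94, 2.02 and 1.02 CPM in PMSC-MF-7d, against 70.5, 199, 193 and 186 CPM in HSC-MF-7d (-6.43 ± 0.44, adjusted p = 6e-10). Mmp10, stromelysin 2, had 5.25, 26.1, 12.2 and 7.78 CPM in PMSC-MF-7d, against 524, 785, 797 and 802 CPM in HSC-MF-7d (-5.83 ± 0.48, adjusted p = 9.1e-09; -6.42 without PMSC-MF-7d replicate 2). HSC-MF-7d replicate 1 was the lowest of its group for each, and no PMSC-MF-7d library reached it. In PMSC-MF-3d, Mmp3 was not called against HSC-MF-7d (-0.71, adjusted p = 0.074), while Mmp13 (-3.21) and Mmp10 (-3.51) were called lower. Between fresh PMSC and fresh HSC the genes did not share a direction. Mmp3 was higher in fresh PMSC (10.59), Mmp13 lower (-4.35), and Mmp10 not called (1.52, adjusted p = 0.47). The promoters of these genes, which lie near each other on chromosome 9, are shown because each gene was lower in PMSC-MF-7d. They lie at chr9:7272264-7272563 for Mmp13, chr9:7445572-7445871 for Mmp3 and chr9:7502092-7502391 for Mmp10, all on the plus strand of GRCm38.p6, with motif matches in capitals as above.
Mmp13: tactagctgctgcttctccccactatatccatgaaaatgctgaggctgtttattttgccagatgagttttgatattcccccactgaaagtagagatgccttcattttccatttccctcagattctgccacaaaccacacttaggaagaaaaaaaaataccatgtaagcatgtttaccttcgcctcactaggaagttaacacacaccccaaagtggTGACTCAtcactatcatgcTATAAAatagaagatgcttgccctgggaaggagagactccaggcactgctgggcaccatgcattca
Mmp3: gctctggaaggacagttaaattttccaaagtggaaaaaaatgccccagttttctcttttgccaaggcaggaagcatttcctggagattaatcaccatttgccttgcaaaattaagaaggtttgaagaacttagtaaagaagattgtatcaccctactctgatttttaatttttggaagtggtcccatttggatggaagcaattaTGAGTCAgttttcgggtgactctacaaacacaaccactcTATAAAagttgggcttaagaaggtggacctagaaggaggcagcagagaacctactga
Mmp10: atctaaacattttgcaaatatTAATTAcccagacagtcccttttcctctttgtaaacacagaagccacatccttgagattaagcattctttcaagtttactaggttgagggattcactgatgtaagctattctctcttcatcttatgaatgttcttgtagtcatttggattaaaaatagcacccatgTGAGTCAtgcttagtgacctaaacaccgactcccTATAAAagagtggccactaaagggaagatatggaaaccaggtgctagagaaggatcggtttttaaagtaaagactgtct
Each held 1 match to the AP-1 motif and 1 to the TATA box. The AP-1 match began 35 bases before the start in Mmp13, 46 in Mmp3 and 63 in Mmp10. Among all 32851 promoters, 5.20% held the AP-1 motif, and 4.10% of those of genes tested. A match describes the letters and does not show that a factor was bound.

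Receptors and surface genes were called in 65.5% of 348 tested members, 98 higher and 130 lower, against 47.1% of all genes. Robo2 and Robo1, receptors of Slit ligands, were lower. Robo2 had 14.7, 19.4, 14.8 and 6.61 CPM in PMSC-MF-7d, against 375, 344, 384 and 334 CPM in HSC-MF-7d (-4.70 ± 0.27, adjusted p = 5.7e-11), and Robo1 had 26.1, 33.2, 37.9 and 38.2 CPM in PMSC-MF-7d, against 106, 102, 95.8 and 99.9 CPM in HSC-MF-7d (-1.57 ± 0.12, adjusted p = 2e-09). Other guidance receptors that were lower in PMSC-MF-7d were Epha7 (-3.6), Plxnd1 (-2.96) and the semaphorin co-receptor Nrp1 (-1.56). The list of guidance receptors was even, with 13 higher and 13 lower of 36.

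The list of receptor tyrosine kinases, which also held the neurotrophin receptor Ngfr, was even as well, with 14 higher and 13 lower of 42. Ror2, a receptor of Wnt5a, had 19.7, 13.5, 17.9 and 15.0 CPM in PMSC-MF-7d, against 0.683, 0.152, 0.341 and 0 CPM in HSC-MF-7d (5.80 ± 0.38, adjusted p = 3.5e-10; 6.72 without HSC-MF-7d replicate 1), and Mst1r, the receptor of macrophage-stimulating protein, had 11.8, 15.0, 14.4 and 12.1 CPM in PMSC-MF-7d, against 0.368, 0.152, 0.409 and 0.212 CPM in HSC-MF-7d (5.55 ± 0.33, adjusted p = 8.3e-11). Mertk, a Gas6 receptor, had 12.2, 17.2, 15.0 and 15.8 CPM in PMSC-MF-7d, against 88.4, 99.6, 105 and 99.5 CPM in HSC-MF-7d (-2.70 ± 0.18, adjusted p = 5.4e-10), while Axl, the other Gas6 receptor named here, was abundant in both groups and not called (0.09 ± 0.17, adjusted p = 0.7). Egfr was lower (101, 98.0, 76.0 and 61.4 CPM in PMSC-MF-7d, against 271, 359, 326 and 339 CPM in HSC-MF-7d; -1.94 ± 0.30, adjusted p = 2.3e-05). Pdgfra was not called (287, 204, 298 and 309 CPM in PMSC-MF-7d, against 273, 284, 308 and 281 CPM in HSC-MF-7d; -0.06 ± 0.17, adjusted p = 0.8), but it was above HSC-MF-7d in PMSC-MF-3d (0.44, adjusted p = 0.038). Pdgfrb was called (0.42 ± 0.16, adjusted p = 0.034) although its libraries overlapped, and the call was lost when any 1 of 6 libraries was left out; without PMSC-MF-7d replicate 4, which gave the largest adjusted p, it was 0.33 (adjusted p = 0.12).

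Cytokine receptors were lower in 26 and higher in 7 of 53, with none of the 7 reaching 4-fold. Cd40, a co-stimulatory receptor, had 0.796, 1.63, 1.54 and 1.10 CPM in PMSC-MF-7d, against 21.4, 14.3, 19.9 and 17.2 CPM in HSC-MF-7d (-3.84 ± 0.35, adjusted p = 2.9e-08). Lepr, the leptin receptor, had 0.0724, 0.897, 0.0733 and 0.0707 CPM in PMSC-MF-7d, against 6.89, 11.1, 15.9 and 15.6 CPM in HSC-MF-7d (-5.52 ± 0.54, adjusted p = 8.3e-08; -7.29 without PMSC-MF-7d replicate 2). Lifr, the receptor of leukaemia inhibitory factor, was lower (-2.13). Ngfr, Eng and Flt4 come from other receptor lists. Ngfr, the p75 neurotrophin receptor, was lower (-4.80). The TGF-beta co-receptor Eng, or endoglin, had 271, 368, 353 and 342 CPM in PMSC-MF-7d, against 664, 723, 689.5 and 750.2 CPM in HSC-MF-7d (-1.08 ± 0.11, adjusted p = 1.8e-07), and the lymphatic receptor Flt4 was lower (-2.62).

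Eng, Flt4 and Plxnd1 are known receptors of endothelium, and markers of endothelial cells stood on the same side. Of 20 endothelial markers tested, none was higher and 15 were lower in PMSC-MF-7d. The summed level of that list was 144 to 330 CPM in PMSC-MF-7d and 313 to 385 CPM in HSC-MF-7d, and most of it was Ptprb, at 267 CPM in PMSC-MF-7d and 229 CPM in HSC-MF-7d. The endothelial factor Sox17 had no count in PMSC-MF-7d and 452 counts over the HSC-MF-7d libraries, at least 225-fold higher in HSC-MF-7d against a floor of 3 counts over the group. Macrophage markers were lower in 13 of 19 and higher in none, with summed levels of 11.6 to 16.9 CPM in PMSC-MF-7d and 33.6 to 64.1 CPM in HSC-MF-7d. Cholangiocyte and epithelial markers were lower in 6 and higher in 1 of 12, with summed levels of 28.9 to 35.0 CPM in PMSC-MF-7d and 58.9 to 118 CPM in HSC-MF-7d. The most abundant member of that list was Sox9 in PMSC-MF-7d, at 20.6 CPM, and Spp1 in HSC-MF-7d, at 76.9 CPM. Some other marker lists had higher summed levels in PMSC-MF-7d. Vascular smooth muscle markers were split, higher in 7 and lower in 4 of 14, with 4 on each side differing by 4-fold or more. Their summed levels were 2250 to 2950 CPM in PMSC-MF-7d and 1230 to 1610 CPM in HSC-MF-7d. Actg2 was the most abundant in PMSC-MF-7d, at 943 CPM against 176 CPM in HSC-MF-7d, and Myh11 the most abundant in HSC-MF-7d. Mesothelial markers were higher in 6 and lower in 3 of 12, with summed levels of 74.9 to 133 CPM in PMSC-MF-7d and 23.1 to 38.4 CPM in HSC-MF-7d. Hepatocyte markers were called in 1 of 22, which was lower in PMSC-MF-7d. Their summed levels were 90.0 to 134 CPM in PMSC-MF-7d and 192 to 243 CPM in HSC-MF-7d. Schwann and neural markers were higher in 3 and lower in 3 of 9. Lymphocyte and granulocyte markers summed to at most 0.449 CPM in PMSC-MF-7d and 1.43 CPM in HSC-MF-7d. The part of other cells in these results was not tested, and in bulk RNA fewer cells of a type cannot be told apart from less RNA per cell.

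G protein-coupled receptors were lower in 32 and higher in 22 of 85. P2ry14, a receptor of UDP-glucose, had 0.978, 1.79, 0.513 and 0.247 CPM in PMSC-MF-7d, against 447, 466, 464 and 452 CPM in HSC-MF-7d (-9.04 ± 0.56, adjusted p = 1.8e-10). Ednrb, the endothelin B receptor, had 0.217, 0.367, 0 and 0.106 CPM in PMSC-MF-7d, against 15.2, 16.7, 17.7 and 19.9 CPM in HSC-MF-7d (-6.65 ± 0.48, adjusted p = 1.4e-09; -7.24 without PMSC-MF-7d replicate 2), and the angiotensin receptor Agtr1a was lower (-4.59). Higher in PMSC-MF-7d were Ackr3, an atypical receptor of Cxcl12, with 117, 38.8, 76.1 and 90.1 CPM in PMSC-MF-7d, against 1.89, 0.557, 0.886 and 1.59 CPM in HSC-MF-7d (6.01 ± 0.38, adjusted p = 2.2e-10), and Npy1r, a neuropeptide Y receptor (5.81).

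Integrins were lower in 13 and higher in 8 of 25. Itgb1, the shared beta chain and the most abundant receptor transcript per length in both groups, was lower (1473 TPM in PMSC-MF-7d and 3150 TPM in HSC-MF-7d; -1.07 ± 0.09, adjusted p = 1.2e-08). Itga4 had 6.75 to 20.8 CPM in PMSC-MF-7d, against 144 to 204 CPM in HSC-MF-7d (-3.95 ± 0.39, adjusted p = 8.4e-08), Itgb3 had 17.6, 10.7, 12.6 and 18.2 CPM in PMSC-MF-7d, against 127, 218, 191 and 204 CPM in HSC-MF-7d (-3.64 ± 0.33, adjusted p = 3.4e-08), and the collagen receptor chain Itga2 was lower (-4.80). Another collagen receptor chain, Itga11, was higher (1.57). Among surface antigens, Ly6a (Sca-1), whose reads may be shared with other Ly6 genes, was higher (67.3, 17.1, 41.6 and 75.3 CPM in PMSC-MF-7d, against 0.683, 0.253, 0.477 and 0.531 CPM in HSC-MF-7d; 6.68 ± 0.50, adjusted p = 2e-09), as was Cd34 (3.75). Nt5e, the ecto-enzyme CD73, had 0.76, 0.408, 1.03 and 0.636 CPM in PMSC-MF-7d, against 149.6, 151, 164 and 156 CPM in HSC-MF-7d (-7.75 ± 0.32, adjusted p = 1.1e-12).

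Receptors of the Wnt, hedgehog and Notch pathways were higher in 12 and lower in 6 of 33, a called share of 54.5% against 47.1% of all genes. Hhip, which binds and holds back hedgehog ligands, had 0.362, 0.652, 0.33 and 0.141 CPM in PMSC-MF-7d, against 15.9, 28.8, 27.2 and 27.2 CPM in HSC-MF-7d (-6.07 ± 0.43, adjusted p = 1.1e-09). The hedgehog transducer Smo was higher (1.5), and Ptch1, the hedgehog receptor, was not called (-0.11 ± 0.13, adjusted p = 0.52). Notch3, a mural cell receptor, was higher in PMSC-MF-7d (2.39) but not in PMSC-MF-3d (-0.76, adjusted p = 0.17).

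**Figure D3:**
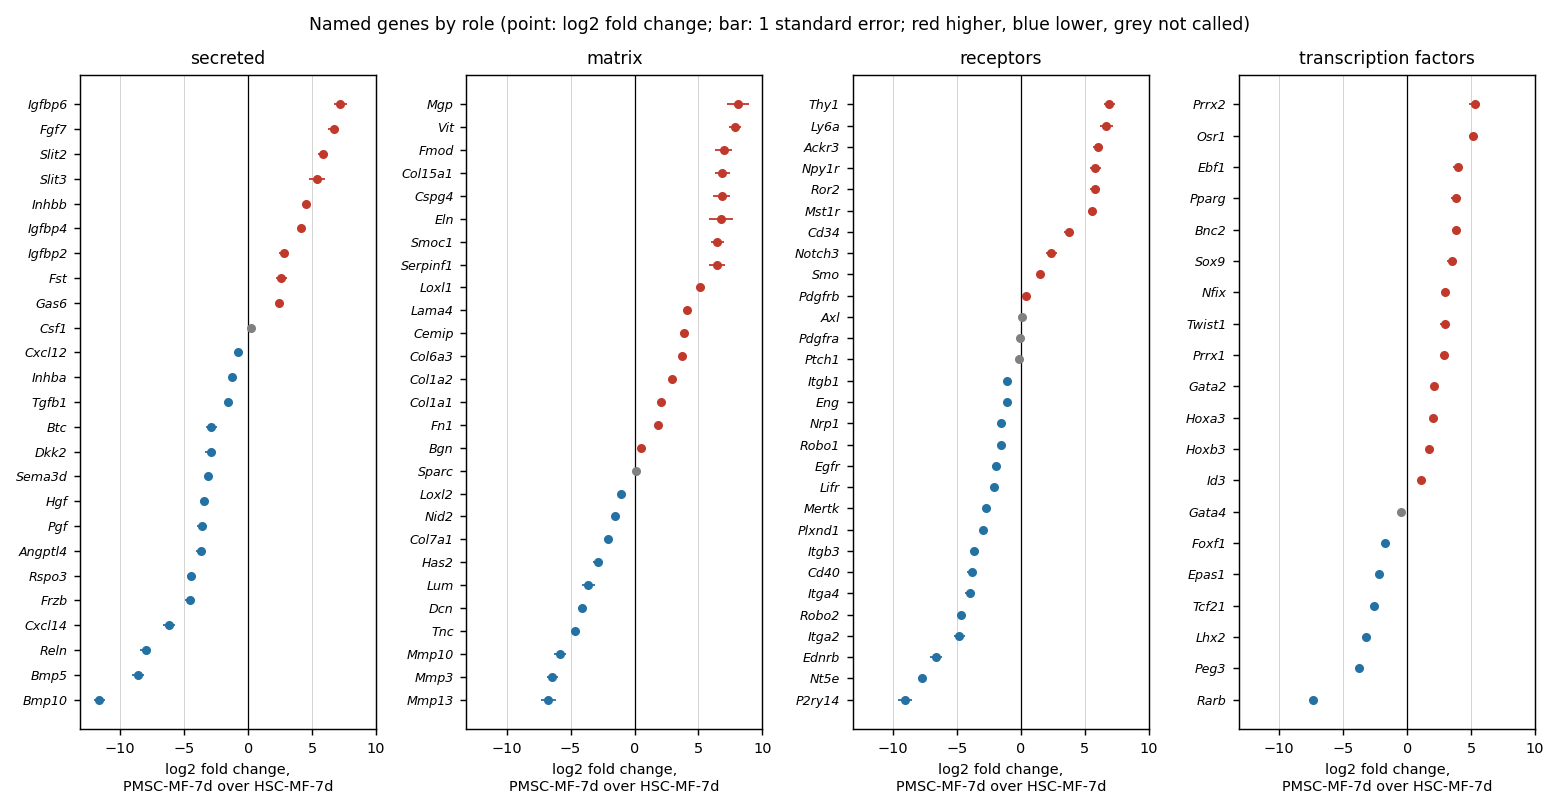
Log2 fold change of PMSC-MF-7d over HSC-MF-7d (point) with 1 standard error (bar) for genes named in the text, by role; red is called higher, blue called lower and grey not called. Csf1, Sparc, Axl, Pdgfra, Ptch1 and Gata4 lie near 0, while Bmp10, P2ry14, Rarb and Mmp13 mark the lower end of their panels.

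Transcription factors were called in 60.5% of 296 tested members, 122 higher and 57 lower, against 47.1% of all genes. Homeobox and T-box factors outside the HOX clusters were higher in 27 and lower in 8 of 54, and lower in 5 without PMSC-MF-7d replicate 4 or HSC-MF-7d replicate 3 or 4. Prrx1, a homeobox factor of limb and stromal mesenchyme, had 503, 218, 279 and 283 CPM in PMSC-MF-7d, against 30.4, 48.2, 44.5 and 50.2 CPM in HSC-MF-7d (2.89 ± 0.22, adjusted p = 2.6e-09), and its paralog Prrx2 had 57.2, 20.4, 33.6 and 39.4 CPM in PMSC-MF-7d, against 1.05, 1.17, 0.954 and 0.691 CPM in HSC-MF-7d (5.27 ± 0.41, adjusted p = 2e-08). Lhx2, known to restrain stellate cell activation in mice, had 3.11, 3.87, 2.53 and 1.87 CPM in PMSC-MF-7d, against 24.6, 28.4, 24.9 and 28.2 CPM in HSC-MF-7d (-3.22 ± 0.34, adjusted p = 2.1e-07). HOX cluster genes were higher in 16 and lower in 0 of 20, with a median log2 fold change of 1.72. Hoxa3 had 28.2, 19.4, 24.7 and 26.9 CPM in PMSC-MF-7d, against 5.21, 5.27, 6.27 and 7.65 CPM in HSC-MF-7d (2.03 ± 0.20, adjusted p = 1.2e-07) and Hoxb3 had 36.5, 19.9, 29.2 and 29.2 CPM in PMSC-MF-7d, against 8.83, 8.16, 8.31 and 9.61 CPM in HSC-MF-7d (1.72 ± 0.17, adjusted p = 9.6e-08).

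Forkhead, GATA and SOX factors were higher in 16 and lower in 4 of 42, a called share of 47.6% against 47.1% of all genes. Basic helix-loop-helix factors were higher in 14 and lower in 9 of 38, and zinc finger, TEAD, RUNX and other factors were higher in 35 and lower in 26 of 100. Osr1, a zinc finger factor, had 49.8, 45.4, 65.3 and 60.1 CPM in PMSC-MF-7d, against 2.10, 1.22, 1.91 and 1.11 CPM in HSC-MF-7d (5.13 ± 0.28, adjusted p = 4.5e-11). Ebf1, which is used in adipocyte and lymphocyte differentiation, had 34.5, 19.1, 37.0 and 46.7 CPM in PMSC-MF-7d, against 3.89, 1.42, 1.16 and 2.34 CPM in HSC-MF-7d (3.94 ± 0.36, adjusted p = 3.1e-08), and Nfix had 350.4, 171, 247 and 247 CPM in PMSC-MF-7d, against 34.0, 33.8, 32.6 and 32.3 CPM in HSC-MF-7d (2.94 ± 0.15, adjusted p = 1.9e-11). Sox9 (3.49), Bnc2 (3.80), Twist1 (2.93) and Gata2 (2.09) were higher as well, though Gata2 was not called in PMSC-MF-3d (0.26, adjusted p = 0.33). Tcf21, a factor of stellate cells and other mesenchyme, had 5.03, 1.43, 4.07 and 4.67 CPM in PMSC-MF-7d, against 19.4, 26.8, 24.5 and 24.2 CPM in HSC-MF-7d (-2.63 ± 0.25, adjusted p = 6.7e-08). Foxf1 (-1.72), the hypoxia factor Epas1 (-2.19) and the imprinted zinc finger gene Peg3 (-3.80) were lower. Gata4, a factor of quiescent stellate cells, was not called (69.0, 82.2, 52.5 and 33.1 CPM in PMSC-MF-7d, against 79.9, 83.5, 80.9 and 83.8 CPM in HSC-MF-7d; -0.47 ± 0.21, adjusted p = 0.072). Per length, the inhibitor of differentiation Id3 was the most abundant factor of both groups, and it was higher in PMSC-MF-7d (686 TPM against 319.6 TPM in HSC-MF-7d; 1.11 ± 0.14, adjusted p = 3e-06).

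Nuclear receptors were higher in 14 and lower in 10 of 42, a called share of 57.1% against 47.1% of all genes. Pparg, a lipid-sensing receptor, was low but higher in PMSC-MF-7d (9.09, 4.00, 9.42 and 12.1 CPM in PMSC-MF-7d, against 0.578, 0.912, 0.341 and 0.584 CPM in HSC-MF-7d; 3.81 ± 0.40, adjusted p = 1.8e-07). Rarb, a retinoic acid receptor and itself a textbook retinoic acid target, had 0.326, 0.816, 0.293 and 0.848 CPM in PMSC-MF-7d, against 61.3, 113, 101 and 105 CPM in HSC-MF-7d (-7.38 ± 0.29, adjusted p = 6.5e-13). Its promoter is shown because it carries the retinoid element; it lies at chr14:16575427-16575726 on the minus strand of GRCm38.p6.
Rarb: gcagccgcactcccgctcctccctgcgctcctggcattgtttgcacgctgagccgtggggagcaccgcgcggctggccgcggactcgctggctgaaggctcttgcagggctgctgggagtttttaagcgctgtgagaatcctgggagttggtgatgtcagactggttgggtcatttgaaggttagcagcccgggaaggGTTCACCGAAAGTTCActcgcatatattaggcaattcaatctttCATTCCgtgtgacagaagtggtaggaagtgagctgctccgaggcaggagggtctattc
The retinoic acid response element began 52 bases before the start, and 0.861% of all 32851 promoters held a match to that motif, as did 0.59% of those of genes tested. A TEAD motif on the opposite strand began 8 bases before the start.

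Contractile genes define myofibroblasts. Of 35 tested, 16 were higher and 6 lower, 62.9% in all, with a median log2 fold change of 0.26; 2 were higher and 2 lower by 4-fold or more. Acta2, smooth muscle actin, had 5611, 6316, 5847 and 6463 CPM in PMSC-MF-7d, against 3472, 3204, 2697 and 3499 CPM in HSC-MF-7d (0.91 ± 0.19, adjusted p = 0.0005), but PMSC-MF-3d did not differ from HSC-MF-7d beyond the threshold (0.22, adjusted p = 0.33). Actg2, the enteric smooth muscle actin, had 713, 910.4, 931 and 1219 CPM in PMSC-MF-7d, against 191, 181, 129.6 and 202 CPM in HSC-MF-7d (2.42 ± 0.23, adjusted p = 5.1e-08). All 30 genes of a G2/M list were higher in PMSC-MF-7d, with a median log2 fold change of 1.2. Mki67, a marker of cycling cells, had 275, 252, 276 and 246 CPM in PMSC-MF-7d, against 117, 120.3, 114 and 138 CPM in HSC-MF-7d (1.10 ± 0.22, adjusted p = 0.00039).

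The difference between origins in culture did not simply repeat that of the fresh cells. Of genes higher in PMSC-MF-7d, 48.0% were also higher in fresh PMSC than in fresh HSC, and 27.9% were lower there, against 33.6% higher and 40.1% lower over all genes tested. Of genes lower in PMSC-MF-7d, 49.1% were also lower in fresh PMSC and 27.9% were higher. In fresh cells 73.7% of genes tested were called. The interaction, the origin difference in culture minus that in fresh cells, was called for 8943 genes, or 60.6% (4633 positive and 4310 negative). With library totals in place of TMM factors it was positive for 6242 and negative for 3212, and its median over all genes was 0.44, against 0.10 with TMM. Genes called in both comparisons with opposite directions made up 13.1% of all genes. Mmp3, Has2, Dkk2 and Pgf were among them, higher in fresh PMSC than in fresh HSC and lower in PMSC-MF-7d than in HSC-MF-7d (-6.43, -2.87, -2.93 and -3.61). In fresh cells the log2 fold changes of Mmp3 and Pgf were 10.59 and 7.45. Has2 had 1982 counts over the fresh PMSC libraries and 3 over the fresh HSC libraries, a ratio of 766 (95% counting interval 262 to 3720). Dkk2 had 655 counts in fresh PMSC and none in fresh HSC, at least 253-fold higher in fresh PMSC against a floor of 3 counts over the group. Tnc was -4.67 in culture and 2.76 in fresh cells, and Peg3 -3.80 and 3.40. Inhbb, Igfbp2, Cyp26b1 and Pparg went the other way, at 4.53, 2.78, 2.30 and 3.81 in culture and -2.20, -3.11, -5.54 and -1.79 in fresh cells. The markers Thy1, Mgp, Bmp10 and Bco1 had the same direction in fresh cells, at 5.85, 12.13, -9.99 and -6.17. Slit2 had it too, with 6511 counts over the fresh PMSC libraries and 1 over the fresh HSC libraries, a ratio of 7550 (95% counting interval 1350 to 298000).

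**Figure D4:**
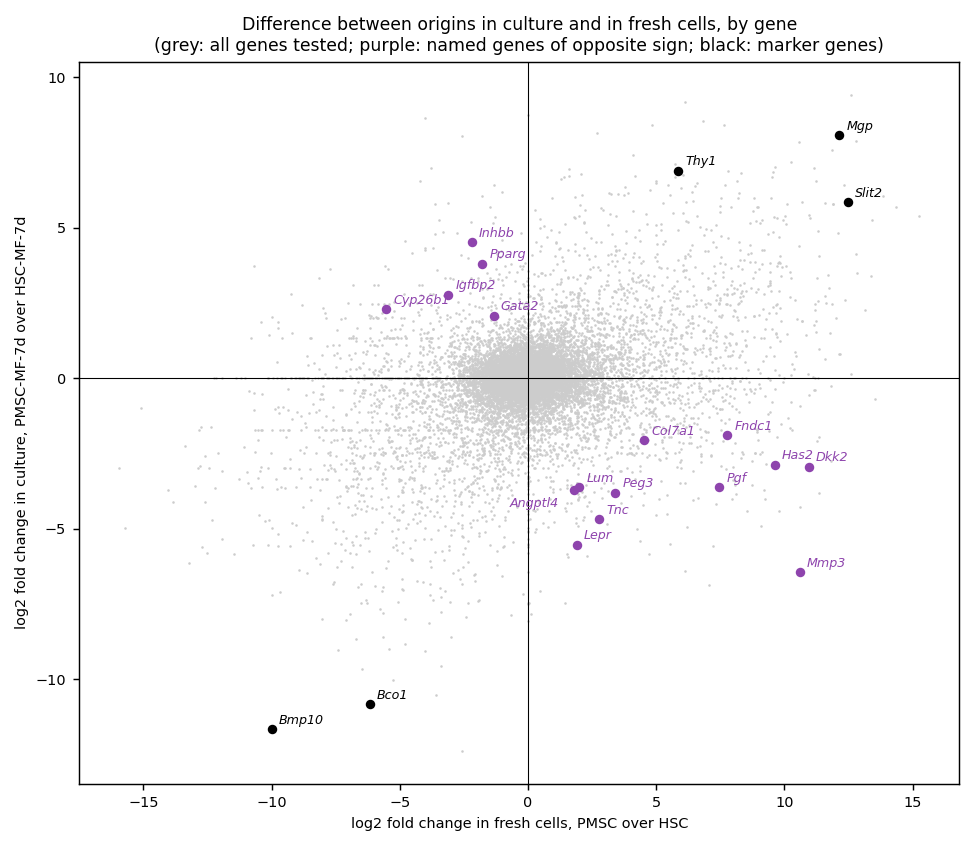
Log2 fold change between origins in culture (vertical axis, PMSC-MF-7d over HSC-MF-7d) against that in fresh cells (horizontal axis, PMSC over HSC), 1 grey point for each of the 14751 genes tested; named genes of opposite sign are purple and the 5 marker genes black. Mmp3, Dkk2 (fitted against fresh HSC at 0 counts), Has2 and Pgf lie far right and below 0, and the markers lie in the quadrants of like sign.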

How the data were processed

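RNA-seq of mouse liver cells was deposited by the authors as 1 table of expected counts and TPM per library. Per the submitters' processing notes, the tools were FastQC, Trimmomatic, STAR 2.5.3a and RSEM 1.2.28 with the mm10 genome; the settings, and whether strand was used in counting, are not given in the sources used here. Per the labels, libraries came from total RNA with a stranded mRNA kit. The deposited expected counts were rounded to whole numbers. The deposited TPM values were used only to compare levels between genes and, as log2(TPM + 1), in 1 alternative.

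Genes were filtered with filterByExpr, scaled by TMM and tested with edgeR 4.0.16 (R 4.3.3; quasi-likelihood test) in 1 fit of the 20 libraries with robust estimation of the spread. Genes were called at a Benjamini-Hochberg adjusted p under 0.05 over the 14751 tested. Alternatives used DESeq2 1.42.0, limma 3.58.1, other filters and scalings, fewer libraries, or PMSC-MF-3d. On simulated counts for this comparison, over 14751 genes, 44.8%, 80.6% and 97.0% of genes changed 1.5-fold, 2-fold and 4-fold were called, and 5.73% of calls were false. Few genes were changed there (67, 67 and 66), none with a mean near 0, and each gene had the same spread in every group. In the data 47.1% of genes were called, and the spread was 19.6% in PMSC-MF-7d and 7.81% in HSC-MF-7d. The simulated rates need not hold for the data.

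The comparison, its gene lists and its named genes were chosen with earlier results of these data known. Named genes were, for each list, up to 3 in each direction with the largest called, non-overlapping difference and a group mean of at least 10 CPM, with 8 in each direction over all genes (20 CPM) and a fixed panel of 22 genes. Gdf2, Inhba, Rspo2, Fgf10, Csf1, Col1a2, Col6a3, Mfap4, Mfap5, Fn1, Sparc, Bgn, Axl, Egfr, Robo1, Nrp1, Smo, Ptch1, Lifr, Agtr1a, Itgb1, Pparg, Id3 and Sox17 fall outside that rule and were chosen after their values were seen. Some genes that the rule names are not reported here. Motifs were searched in RefSeq promoters of GRCm38.p6, and the retinoic acid motif and the letters of the AP-1 motif were chosen after the values and matches were seen. Counting intervals and the floor of 3 counts cover counting error only. No libraries were duplicates.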

Additional observations from a re-analysis of the deposited data

Results flagged for a closer look

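For each printed gene and each group of 4 libraries with a library of at least 5 CPM, the gap between the highest or lowest library and its neighbour was set against the range of the group (Dixon's criterion at the 95% level). It was exceeded in 19 of 221 groups, while chance gives about 1 in 20. HSC-MF-7d replicate 1 accounted for 11 of the 19. It was low for Tnc (7000 CPM), Mmp10 (524 CPM), Emilin1 (198 CPM), Itga4 (144 CPM), Cxcl14 (128 CPM), Ntn1 (86.5 CPM), Mmp3 (70.5 CPM), Flt4 (39.9 CPM), Hhip (15.9 CPM) and Sox17 (3.84 CPM), and high for Igfbp2 (98.8 CPM). PMSC-MF-7d replicate 1 was high for Fgf7 (105 CPM), Lum (18 CPM) and Rspo2 (10.5 CPM) and low for Itgb1 (2159 CPM). PMSC-MF-7d replicate 2 was low for Col6a3 (1358 CPM) and Cspg4 (149 CPM). PMSC-MF-7d replicate 3 was high for Sema3d (41.7 CPM), and HSC-MF-7d replicate 4 was high for Lama4 (15.3 CPM).

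The origin difference in culture differed from that in fresh cells, by the interaction test in edgeR at an adjusted p under 0.05, for 103 of 139 printed genes, against 60.6% of all genes. Most printed genes were chosen for a large difference in culture, which is a term of the interaction. That choice favours larger shares than over all genes, so no conclusion is drawn from them. For 25 of the 103 genes the origins were called in opposite directions in culture and in fresh cells (13.1% of all genes). The log2 interactions of these 25 genes (culture minus fresh) follow. Secreted factors lower in culture and higher in fresh portal cells were Dkk2 (-13.88, fitted against fresh HSC at 0 counts, so no bound), Pgf (-11.06), Angptl4 (-5.53), Btc (-4.62), Edn1 (-4.57) and Bmper (-1.35). Matrix genes of the same kind were Mmp3 (-17.02), Has2 (-12.50, with 3 counts in fresh HSC), Fndc1 (-9.65), Tnc (-7.43), Col7a1 (-6.58), Lum (-5.61), Nid2 (-3.29) and Loxl2 (-2.95). Receptors and factors of that kind were Lepr (-7.41), Peg3 (-7.20), Itga2 (-6.68), Egfr (-4.16) and Tcf21 (-3.77). In the opposite sense stood Cyp26b1 (7.84), Inhbb (6.74), Igfbp2 (5.90), Pparg (5.60), Gata2 (3.43) and Mki67 (2.86).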

How the results depend on the processing

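The count of genes called between PMSC-MF-7d and HSC-MF-7d stayed within 1.5 times of 6941 under every alternative run, and was 6208 to 6815 with any 1 library left out. Counts of 4-fold calls moved with limma on log2(TPM + 1): 264 higher and 340 lower, against 650 and 881; the cause was not tested. For the interaction with fresh cells, limma on TPM called 7263 genes positive and 3392 negative, and library totals 6242 and 3212, against 4633 and 4310; the cause was not tested. With PMSC-MF-3d in place of PMSC-MF-7d, the log2 fold changes of Tgfb1 (0.51), Igfbp2 (-0.36), Lum (0.22), Fn1 (-0.39), Notch3 (-0.76), Cyp26b1 (-2.13), Sparc (-0.33) and Pdgfra (0.44) changed sign. Some kept sign and call but were smaller, such as Ly6a (3.19), Inhbb (1.29), Cemip (1.21), Col1a1 (0.95) and Actg2 (0.67). Others lay further from 0, such as Cd34 (5.57) and Dkk2 (-5.10). Pdgfra, not called, was -0.12 to 0.06 with 1 library left out, with the sign changed without PMSC-MF-7d replicate 2, and 0.04 without that library and HSC-MF-7d replicate 1, an alternative chosen after seeing the data. Of 139 printed genes, 11 called ones lost the call under at least 1 alternative: 10 with PMSC-MF-3d, and Pdgfrb and Lrat under others (Pdgfrb under both). Pdgfra and Sparc gained it with PMSC-MF-3d, and Gata4 under 4 alternatives. Of 88 counts of list members called in 1 direction, 32 moved by more than 1.5 times under at least 1 alternative.

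No shared deviation was seen between libraries of the same replicate number: the correlations of their deviations were -0.0409, -0.0103, 0.0175 and -0.00275. Such values cannot show whether those libraries were prepared together, and no label says so. With the number as a replicate block, 3442 genes were higher and 3373 lower, and the call of Pdgfrb was lost. Depth limits genes near the floor of 3 counts over a group, which is 0.0279 CPM in PMSC-MF-7d and 0.0415 CPM in HSC-MF-7d.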
